A study of Mus musculus with 8 samples.

Results

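Osteoclasts are the large, multinucleate cells that dissolve bone, and they form when cells of the monocyte and macrophage lineage fuse. The genes described here are 8 that osteoclasts are known for: Dcstamp, Ocstamp, Tnfrsf11a, Oscar, Calcr, Nfatc1, Src and Acp5. They were taken by exact gene symbol from the 18820 genes with a probe set of their own on the array, and each of the 8 had 1 such probe set. They were proposed with the differences between high-fat diet (HFD) and low-fat diet (LFD) arrays already known, so their levels and differences are a description, and no test is given for them.

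Adipose tissue macrophages (ATMs) from obese and lean mice were measured on 8 whole-transcript arrays in 4 separate experiments, with 1 HFD and 1 LFD array in each. All mice were male wildtype C57Bl/6 animals. Obese mice received a lard-based HFD with 45% of energy from fat for 16 weeks in experiments 1 and 3, with 60% for 15 weeks in experiment 2 and with 60% for 10 weeks in experiment 4, and lean mice received a matched LFD with 10% of energy from fat for the same time. Cells carrying EMR1, the macrophage surface protein that Adgre1 encodes, were selected with magnetic beads from the stromal fraction of epididymal fat, and each array holds RNA from a pool of mice. Cells of other types can pass such a selection, and marker levels are given with the results. Both arrays of experiment 1 stood apart, low in macrophage and high in endothelial markers, and means without that experiment are given below. The pools, 4 per diet, are the replicates.

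In bone, a precursor becomes an osteoclast when RANKL (Tnfsf11) binds its receptor RANK (Tnfrsf11a) in the presence of M-CSF. RANK works through TRAF adaptors and NF-kB, and a second signal comes from immunoreceptors such as OSCAR that pair with the ITAM adaptors Fcer1g and Tyrobp. Both signals meet at NFATc1, the transcription factor that switches on the osteoclast programme together with AP-1, PU.1 (Spi1) and MITF. DC-STAMP and OC-STAMP are the membrane proteins that fusion depends on, Src drives the actin structures with which an osteoclast grips bone, the calcitonin receptor (Calcr) lets the hormone calcitonin stop the cell, and Acp5 encodes tartrate-resistant acid phosphatase, the classical stain for osteoclasts. Adipose tissue is not bone, but macrophages around dying adipocytes can also fuse into multinucleate cells.

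Stretches of the promoters of Oscar, Acp5 and Src are shown because they hold motif letters of factors of this programme. The sequences are RefSeq's, on the mouse build GRCm38.p6, written 5′ to 3′ on the gene's strand in lower case, with the matches in capitals. Windows covered the 250 bases before each annotated start, and both strands were searched for TGANTCA (AP-1), TGGAAA (NFAT), GAGGAAG (PU.1) and TCACNTGA (MITF). Strings of different factors can share end letters, but no 2 of the matches found overlapped. The Oscar window (chr7:3616158-3616407, minus strand) ends at the outermost annotated start and holds TTTCCA, the NFAT letters on the opposite strand, 249 to 244 and 82 to 77 bases before the start, and CTTCCTC, the PU.1 letters on the opposite strand, 238 to 232 bases before it. The Acp5 stretch (chr9:22130671-22130700, minus strand) lies before an inner start of the gene and holds TCACATGA, the MITF letters, 91 to 84 bases before that start. The Src stretch (chr2:157424173-157424202, plus strand) holds CTTCCTC 109 to 103 bases before an inner start.
Oscar: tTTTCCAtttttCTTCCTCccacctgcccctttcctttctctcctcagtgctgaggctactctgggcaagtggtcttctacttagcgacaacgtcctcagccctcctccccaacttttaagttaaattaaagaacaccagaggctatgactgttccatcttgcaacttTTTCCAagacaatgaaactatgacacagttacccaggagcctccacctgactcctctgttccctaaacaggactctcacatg
Acp5: aagtccagtgcTCACATGAcccaaggggag
Src: ccgggtccgcgCTTCCTCctttctccggct

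Of all 32851 RefSeq windows of this length, 6.75% held the AP-1 letters, 18.6% the NFAT letters, 10.6% the PU.1 letters and 3.45% the MITF letters. Windows were at hand for 5 of the 8 genes, 8 windows in all. The inner Acp5 window also held TTTCCA 117 to 112 bases before the start. The windows of Tnfrsf11a and Calcr and the other windows of Acp5 held none of the 4 strings, and no AP-1 string was found in any of the 8. A match is a string of letters and not a measured binding site.

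Dcstamp, a gene of fusion, and Acp5, the phosphatase gene, had mean log2 differences of 1.93 and 1.74 between obese and lean mice, although Dcstamp was dim in 2 of the 4 lean pools. Ocstamp and Src were higher by less, Nfatc1 was slightly lower, and Tnfrsf11a, Oscar and Calcr did not keep 1 sign. In all 4 experiments the obese pool was higher for 4 of the 8 genes (Dcstamp, Ocstamp, Src and Acp5), and 1 gene (Nfatc1) was lower in all 4 as deposited but in 3 with arrays centred on their medians, against 11.0% and 7.43% of all genes. These shares are given for scale, because the genes were chosen with this contrast known. The median difference of the 8 genes was 0.33 on the log2 scale, and it was 0.37, 0.34, 0.28 and 0.44 in experiments 1, 2, 3 and 4. Relative to macrophage markers it was smaller or of the opposite sign (0.15 with 13 markers subtracted, -0.38 with Cd68, Adgre1 and Itgam subtracted). In experiment 1 Cd68, Adgre1 and Itgam differed by 2.45, 2.04 and 2.10, more than in any other experiment. Oscar and Calcr, dim on all arrays, are among the 8. Over all 18820 genes the median difference was 0.0049. In RNA from a pool of cells, fewer cells that express a gene and less of its RNA per cell cannot be told apart.

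**Figure D1:**
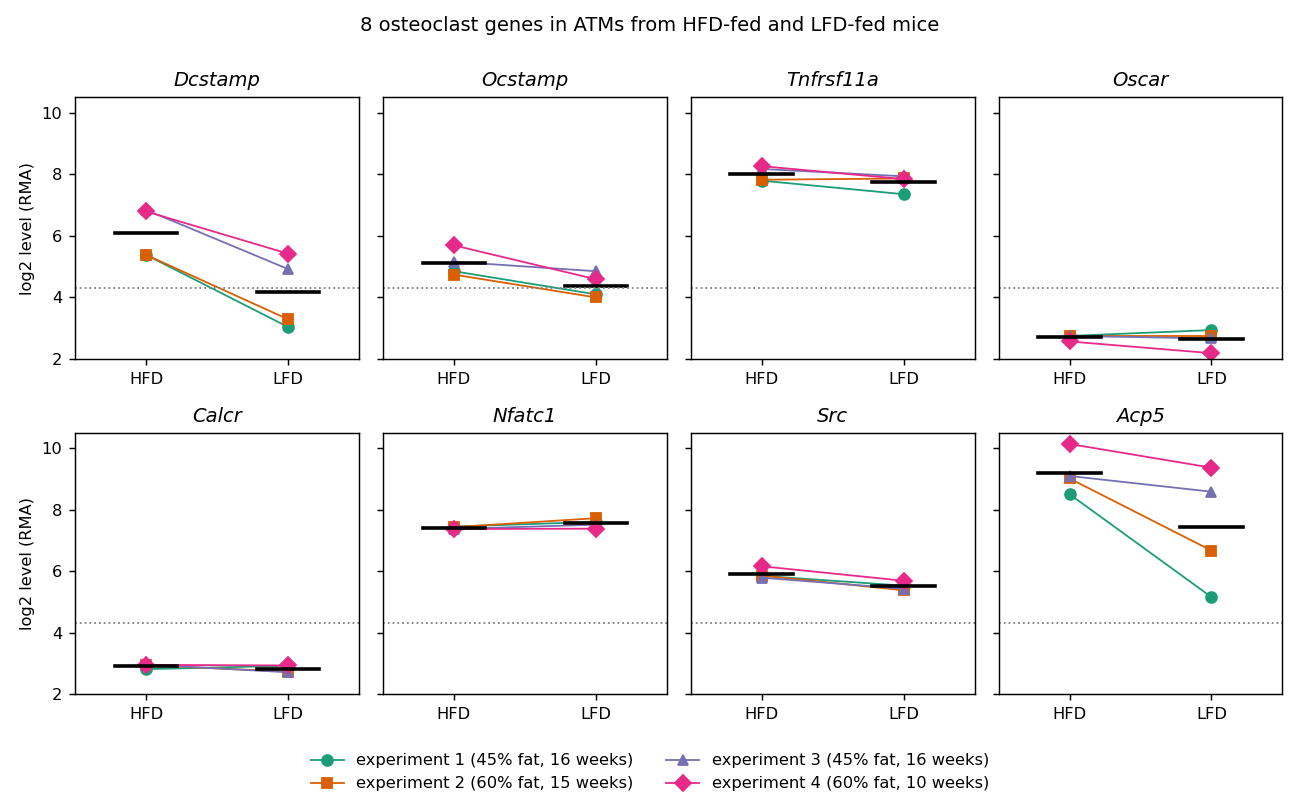
Log2 level (RMA, vertical axis) of the 8 osteoclast genes on HFD arrays (left in each panel) and LFD arrays (right), with the arrays of 1 experiment joined by a line and the mean of 4 pools as a black bar. The dotted line is the dim limit of 4.32; Dcstamp, Ocstamp, Src and Acp5 slope down to LFD in all 4 experiments, and Oscar and Calcr lie under the limit on every array.

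Dcstamp encodes the multi-pass membrane protein without which mouse osteoclasts and macrophage giant cells stay mononucleate. Its level was 5.38, 5.38, 6.84 and 6.79 in ATMs from obese mice and 3.04, 3.29, 4.92 and 5.42 in ATMs from lean mice, in experiments 1, 2, 3 and 4. Within each experiment the obese pool was higher, by 2.34, 2.09, 1.92 and 1.37. The means were 6.10 ± 0.83 in ATMs from obese mice and 4.17 ± 1.18 in ATMs from lean mice (SD, n = 4 pools each), with a mean difference of 1.93 ± 0.41 (SD of 4 differences). The groups overlapped, since the lean pool of experiment 4 (5.42) lay just above the obese pools of experiments 1 and 2. The lean pools of experiments 1 and 2 lay under the dim limit, a log2 of 4.32, used here as the border between signal and background, so the sizes of the differences in those experiments rest on background values. In experiments 3 and 4, where both pools were above it, the differences were 1.92 and 1.37.

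Ocstamp encodes a related membrane protein that fusion also needs. Its level was 4.85, 4.74, 5.16 and 5.69 in ATMs from obese mice and 4.10, 4.00, 4.85 and 4.59 in ATMs from lean mice. The differences were 0.75, 0.74, 0.32 and 1.10, with a mean of 0.73 ± 0.32 (SD of 4 differences). The levels were low, with the lean pools of experiments 1 and 2 below the dim limit and the others at 4.59 to 5.69. The groups overlapped, because the lean pool of experiment 3 stood level with the lowest obese pools.

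Tnfrsf11a, the receptor that receives the RANKL signal, was well above the dim limit on every array. Its level was 7.79, 7.82, 8.17 and 8.26 in ATMs from obese mice and 7.35, 7.86, 7.93 and 7.84 in ATMs from lean mice. The difference was 0.43, -0.04, 0.24 and 0.42 in experiments 1, 2, 3 and 4, so the lean pool was the higher in experiment 2. The mean difference of 0.26 was about as large as its spread (SD 0.22).

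Oscar and Calcr, a collagen-binding immunoreceptor and the calcitonin receptor, were dim on all 8 arrays. Oscar was at 2.57 to 2.75 in ATMs from obese mice and at 2.19 to 2.94 in ATMs from lean mice, and 4 of the 8 arrays were listed at exactly the same value. Calcr was at 2.82 to 2.97 in ATMs from obese mice and at 2.72 to 2.94 in ATMs from lean mice. The mean differences were 0.07 ± 0.24 for Oscar and 0.09 ± 0.17 for Calcr (SD of 4 differences). Neither gene gave a signal in these cells that a diet difference could be read from, and the Oscar promoter strings shown above stand beside a level at background.

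Nfatc1, the transcription factor at the centre of the programme, was above the dim limit on every array and varied little. Its level was 7.45, 7.43, 7.37 and 7.37 in ATMs from obese mice and 7.60, 7.72, 7.51 and 7.38 in ATMs from lean mice. The obese pool was the lower in each experiment, by differences of -0.15, -0.29, -0.14 and -0.02, with a mean of -0.15 ± 0.11 (SD of 4 differences). The groups overlapped at the bottom, in experiment 4. With each array centred on its own median the difference in experiment 4 was 0.06, so its sign there depends on the scaling.

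Src, the tyrosine kinase of the podosome belt, had the smallest spread of the 4 genes that were higher. Its level was 5.85, 5.86, 5.79 and 6.16 in ATMs from obese mice and 5.53, 5.38, 5.43 and 5.69 in ATMs from lean mice. The differences were 0.31, 0.48, 0.36 and 0.46, with a mean of 0.40 ± 0.08 (SD of 4 differences), a 1.32-fold difference. Every HFD array lay above every LFD array, which was true of 1 of the 8 genes and of 1.19% of all genes, and 0 of the 8 lay wholly below (0.680% of all genes).

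Acp5 encodes the phosphatase that is released into the resorption space and that macrophages also keep in lysosomes. Its level was 8.50, 9.01, 9.09 and 10.13 in ATMs from obese mice and 5.16, 6.67, 8.58 and 9.36 in ATMs from lean mice. The differences were 3.34, 2.34, 0.51 and 0.77, so the mean of 1.74 had a wide spread (SD 1.34). The lean pools of experiments 1 and 2 lay far below the other 6 arrays, and the lean pool of experiment 4 lay above 3 of the 4 obese pools. Without experiment 1 the mean difference of Acp5 was 1.21, whereas that of Dcstamp was 1.79, that of Ocstamp 0.72 and that of Src 0.44. For the other genes it was 0.21 for Tnfrsf11a, -0.15 for Nfatc1, 0.15 for Oscar and 0.16 for Calcr.

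At both fat contents obese pools had the higher mean for Dcstamp, Acp5, Ocstamp and Src. With 45% of energy from fat the mean difference was 2.13 for Dcstamp, 1.92 for Acp5, 0.54 for Ocstamp and 0.34 for Src. With 60% it was 1.73 for Dcstamp, 1.56 for Acp5, 0.92 for Ocstamp and 0.47 for Src. Nfatc1 differed by -0.15 at both. Each mean rests on 2 experiments, the 60% diets were also the shorter ones, and the difference between the fat contents was not tested.

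The makeup of the pools also differed between experiments. The mean of 13 macrophage markers was 8.93, 10.59, 10.51 and 10.36 in ATMs from obese mice and 7.72, 10.73, 10.95 and 10.25 in ATMs from lean mice. The mean of 18 endothelial markers was 10.13, 7.58, 7.61 and 7.25 in ATMs from obese mice and 10.48, 8.44, 5.62 and 8.93 in ATMs from lean mice. Both arrays of experiment 1 thus stood apart, with the lean pool the lowest in macrophage markers. Adgre1 itself was at 8.58 and 6.54 in the obese and lean pools of experiment 1, and at 9.95 to 10.95 on the other arrays. No marker of either list was dim on all arrays. Only Cd68 of the 13 macrophage markers was higher on the HFD array of every experiment, and of the 18 endothelial markers 0 were higher and 0 lower in all 4. The mean of 8 pericyte and smooth muscle markers was likewise highest in experiment 1, at 9.06 in the obese pool and 9.13 in the lean pool, and at 5.05 to 7.32 on the other arrays. The means of 6 B cell markers (3.41 to 3.58 in obese pools, 3.71 to 3.92 in lean pools) and of 8 T cell markers (3.76 to 4.32 in obese pools, 3.97 to 4.53 in lean pools) were lower in obese pools in all 4 experiments, as was that of 6 NK cell markers (2.86 to 3.09 in obese pools, 3.04 to 3.60 in lean pools), and that of 4 eosinophil markers (3.43 to 4.01 in obese pools, 3.27 to 3.63 in lean pools) was higher, all at or near dim levels, with 5 of the 6 B cell markers dim on all arrays. The part of these cells in the differences of the 8 genes was not tested.

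**Figure D2:**
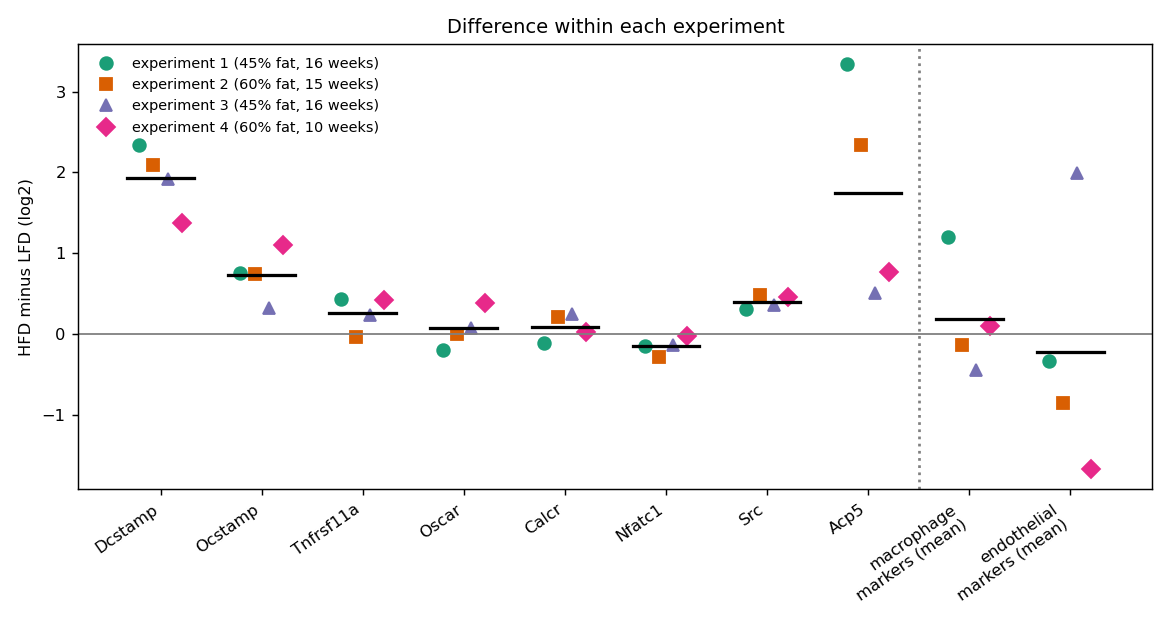
HFD minus LFD (log2, vertical axis) in each of the 4 experiments for the 8 osteoclast genes and for the mean of 13 macrophage and 18 endothelial markers, with the mean of 4 experiments as a black bar. Dcstamp, Ocstamp, Src and Acp5 lie above 0 in every experiment, while the macrophage markers range from -0.44 to 1.20 and the endothelial markers from -1.67 to 1.99.

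To set the 8 genes against the macrophage signal of the same array, the mean of the 13 macrophage markers was subtracted from each level, a step chosen after the data had been seen. Dcstamp was then higher in ATMs from obese mice by 1.14, 2.23, 2.36 and 1.26 in experiments 1, 2, 3 and 4, and Acp5 by 2.13, 2.48, 0.95 and 0.67. With the mean of Cd68, Adgre1 and Itgam subtracted, Dcstamp differed by 0.14, 1.73, 1.94 and 1.05, and Acp5 by 1.14, 1.98, 0.53 and 0.46. These 2 genes therefore stayed above 0 in all 4 experiments under both subtractions. Ocstamp and Src stayed above 0 in experiments 2, 3 and 4 but not in experiment 1, where Ocstamp was at -0.45 and Src at -0.89 after subtraction of the 13 markers, and at -1.44 and -1.89 after subtraction of Cd68, Adgre1 and Itgam. For Dcstamp and Ocstamp the lean pools of experiments 1 and 2 lay under the dim limit. The sizes of their values in those experiments therefore rest on background, and a lower level in those pools could not show. The mean of the 4 differences was 0.55 for Ocstamp and 0.22 for Src with the 13 markers subtracted, and 0.01 for Ocstamp and -0.31 for Src with the 3 genes subtracted, so the sign of the Src mean turned.

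**Figure D3:**
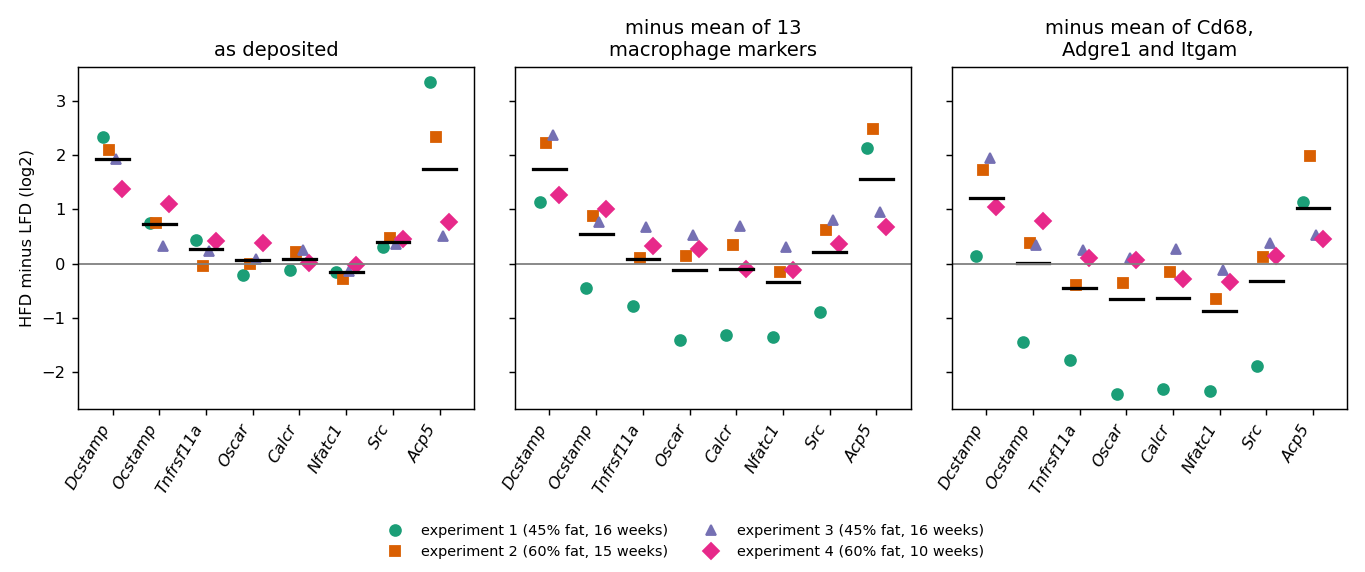
HFD minus LFD (log2, vertical axis) of the 8 osteoclast genes in each experiment as deposited (left), relative to the mean of 13 macrophage markers (middle) and relative to the mean of Cd68, Adgre1 and Itgam (right), with the mean of 4 experiments as a black bar. Dcstamp and Acp5 lie above 0 in all 4 experiments in every panel, and the points of experiment 1 move most.

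Over the 8 arrays the levels of several of the 8 genes ran together, as a description over arrays that share diets, experiments and cell makeup. Pearson's r was 0.93 between Dcstamp and Ocstamp, 0.91 between Dcstamp and Acp5, and 0.78 between Dcstamp and Src. Nfatc1 ran the other way, with r of -0.92 against Dcstamp and -0.84 against Acp5. With the mean of each experiment removed, r was 0.89 for Dcstamp and Ocstamp, 0.95 for Dcstamp and Src and -0.90 for Dcstamp and Nfatc1. With 1 array per diet in each experiment, only the diet differences remain after this step. The sign of r is then fixed for genes that kept 1 sign, so these values do not show that the genes ran together.

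The genes most like each of the 8 were those with the highest r over the 8 arrays among the 10623 genes that were not dim on more than 4 arrays. A high r and a like pattern thus follow from the choice. For Dcstamp these were Grpel1, a co-chaperone of mitochondrial protein import (r = 0.997), Arhgap25, a GTPase-activating protein of blood cells (0.986), and Osbpl3, an oxysterol-binding-protein relative (0.983). Arhgap25 was higher in ATMs from obese mice by 1.64, 1.51, 1.29 and 0.98. For Acp5 they were Mmp19, a matrix metalloproteinase (0.982), Fam214b (0.980) and Pold4, a DNA polymerase delta subunit (0.980). Mmp19 differed by 2.61, 1.69, 0.44 and 1.04. For Ocstamp they were Cox10, an enzyme of haem a synthesis (0.986), Ceacam16 (0.982) and Agap3 (0.981). For Src they were Gde1, a glycerophosphodiesterase (0.970), Wsb2 (0.959) and Ago2, an Argonaute protein (0.946). For Tnfrsf11a they were Matk, a kinase that restrains Src family members (0.992), Coq7, an enzyme of ubiquinone synthesis (0.980), and Alg5 (0.978). For Nfatc1 they were Zfp738 (0.950), Zfp638 (0.933) and Sorbs3, the adhesion protein vinexin (0.929). The top genes for Oscar (Zfp212) and Calcr (Cript) follow values at background.

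The rest of the osteoclast pathway was read from 10 lists with 228 genes beside the 8, of which 206 were measured. The lists were chosen with earlier results of these data known, so shares of all genes stand beside theirs for scale. In limma across all 18820 genes 0 genes passed an adjusted p of 0.05 in either direction (0% higher and 0% lower), and the smallest adjusted p was 0.982. At an unadjusted p under 0.05, 18 of the 206 (8.74%) were higher and 4 (1.94%) were lower in obese than in lean pools, against 3.30% and 1.51% of all genes. These shares are 621 and 284 genes, and with each array centred on its median the split was 312 and 402. The companion total of 22 (10.7%, against 4.81% of all genes) depended on single pools: it was 8 (3.88%, against 3.13%) without the lean pool of experiment 2, 10 (4.85%) without the obese pool of experiment 2 (3.44% of all genes) or of experiment 4 (2.78%), and 12 (5.83%, against 2.77%) without the obese pool of experiment 3. It was 44 (21.4%, against 8.92%) without experiment 1, 13 (6.31%, against 3.08%) without experiment 4, 2 (0.971%, against 1.03%) with 45% fat only and 42 (20.4%, against 10.7%) with 60% fat only. Companion genes were also brighter as a set: 22 of the 206 were dim on more than 4 arrays, whereas only 10623 of all 18820 genes were not. Without such dim genes the total was 19 of 184 (10.3%, against 6.0% of all genes left). The sign counts below were not repeated without dim genes. With experiment as a replicate block 0 genes passed the adjusted threshold (smallest adjusted p 0.0508), and at an unadjusted p under 0.05 50 companion genes (24.3%) were higher and 11 (5.34%) lower, against 7.95% and 4.16% of all genes. By sign alone, 50 of the 206 (24.3%) were higher and 18 (8.74%) lower in all 4 experiments, against 11.0% and 7.43% of all genes. Every HFD array lay above every LFD array for 3 of them (Traf5, Cd9 and Slc4a2; 1.46%, against 1.19% of all genes) and below for 1 (Jun; 0.485%, against 0.680%), shares near those of all genes, and Slc4a2 and Jun are named after their values were seen. The methods' t-test called 0 genes after Benjamini-Hochberg adjustment, and before adjustment 524 genes were higher and 286 lower at p under 0.05, with 10 of the 206 companion genes (4.85%) beside 4.30% of all genes.

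**Figure D4:**
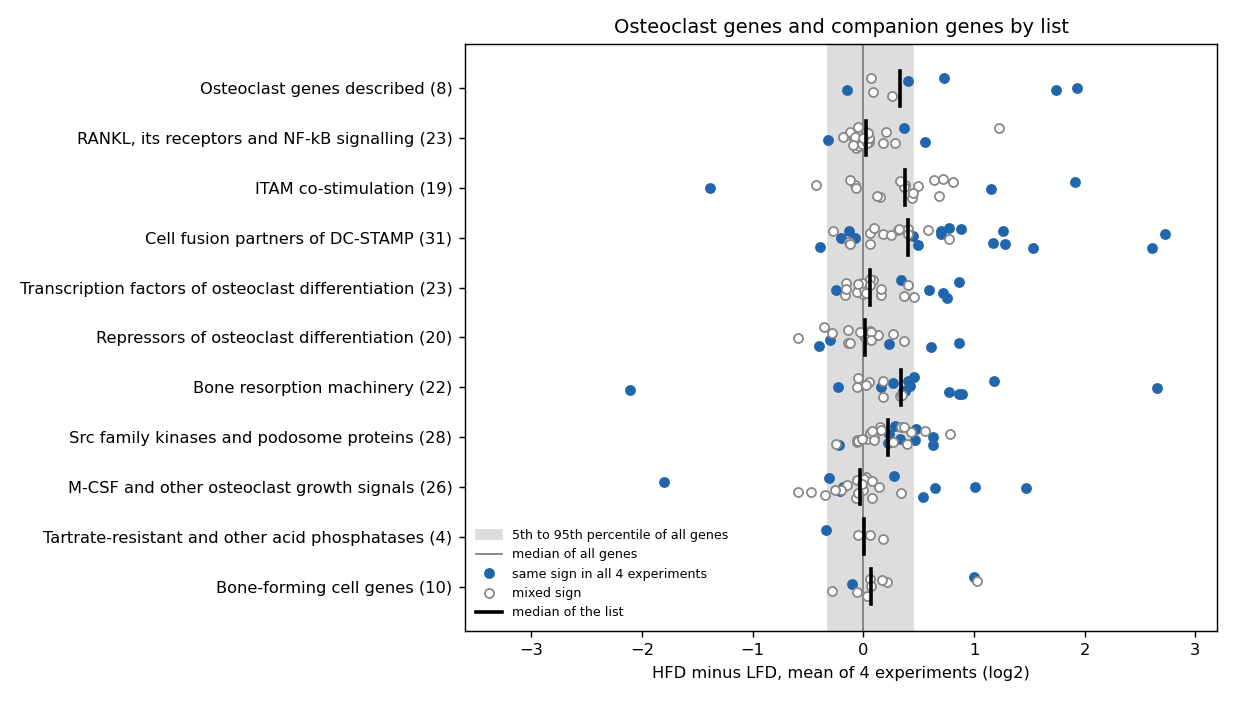
Mean HFD minus LFD over 4 experiments (log2, horizontal axis) for each of the 8 osteoclast genes and for companion genes by list, with the number measured in brackets. Filled points had 1 sign in all 4 experiments, open points did not, black ticks are list medians and the grey band runs from percentile 5 to percentile 95 of all genes (-0.32 to 0.45); the fusion and resorption lists reach furthest to the right.

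Of the 10 lists, those of cell fusion and of bone resorption held the most genes with 1 sign in all 4 experiments. Of 31 measured fusion partners 12 (38.7%) were higher and 4 (12.9%) lower in all 4 experiments, against 11.0% and 7.43% of all genes. Their median difference of 0.40 was 0.18 without the lean pool of experiment 1. Of 22 genes of the resorption machinery 12 (54.5%) were higher and 2 (9.09%) lower, with a median of 0.34 that was 0.22 without the obese pool of experiment 2. Macrophages use many of the same proteins in lysosomes and in adhesion.

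Among fusion partners, Atp6v0d2, a subunit of the vacuolar H+-ATPase that mouse osteoclast precursors need for fusion, was at 9.74, 10.69, 11.17 and 11.30 in ATMs from obese mice and at 5.05, 7.90, 8.81 and 10.22 in ATMs from lean mice. Its mean difference was 2.73 (SE 1.02; limma, adjusted p = 0.982), with 4.70 in experiment 1 and 2.79, 2.36 and 1.08 in experiments 2, 3 and 4. The lean pool of experiment 4 lay above the obese pool of experiment 1, so the groups overlapped, as they did for Dcstamp. Adam8, a membrane metalloproteinase, differed by 2.61 (SE 0.89), Lgals3, the lectin galectin-3, by 1.53 (SE 0.61) and Cd9, a tetraspanin, by 1.28 (SE 0.42), each higher in all 4 experiments with an adjusted p of 0.982 in limma. These genes were named for a large mean difference of 1 sign in all 4 experiments, so their shared sign follows from the choice. Further genes in the paragraphs below were named by the same rule. The SEs of companion genes come from the fit without a block, so they also hold the spread between experiments. Cd9 differed by 0.07 in experiment 1 and by over 1 in experiments 2 and 3. Itgb3, the beta subunit of the vitronectin receptor by which osteoclasts attach, was lower in all 4 experiments and close to the dim limit, at 4.26 to 5.21 in ATMs from obese mice and 4.34 to 5.72 in ATMs from lean mice.

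Among resorption genes, Ctsk, the collagen-degrading cathepsin K, was at 8.10, 8.83, 9.66 and 9.96 in ATMs from obese mice and at 5.62, 6.02, 5.81 and 8.50 in ATMs from lean mice. The mean difference was 2.65 (SE 0.70; limma, adjusted p = 0.982), and the lean pool of experiment 4 stood well above the other lean pools. Tcirg1, the osteoclast form of the H+-ATPase a subunit, had an even difference over experiments (SD 0.02), at 9.15, 9.39, 9.78 and 10.09 in ATMs from obese mice and 8.28, 8.51, 8.89 and 9.18 in ATMs from lean mice. It differed by 0.89 (SE 0.26), and Ctsl, the lysosomal cathepsin L, by 1.18 (SE 0.45). Mmp9, the gelatinase of osteoclasts, ran against the list, at 5.67, 5.85, 5.51 and 7.07 in ATMs from obese mice and 5.75, 9.21, 9.21 and 8.38 in ATMs from lean mice. Its mean difference was -2.11 (SE 0.79), with experiment 1 near 0, where both pools were low. In limma with experiment as a block, the adjusted p was 0.0829 for Ctsk, 0.0575 for Tcirg1, 0.158 for Ctsl and 0.296 for Mmp9.

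**Figure D5:**
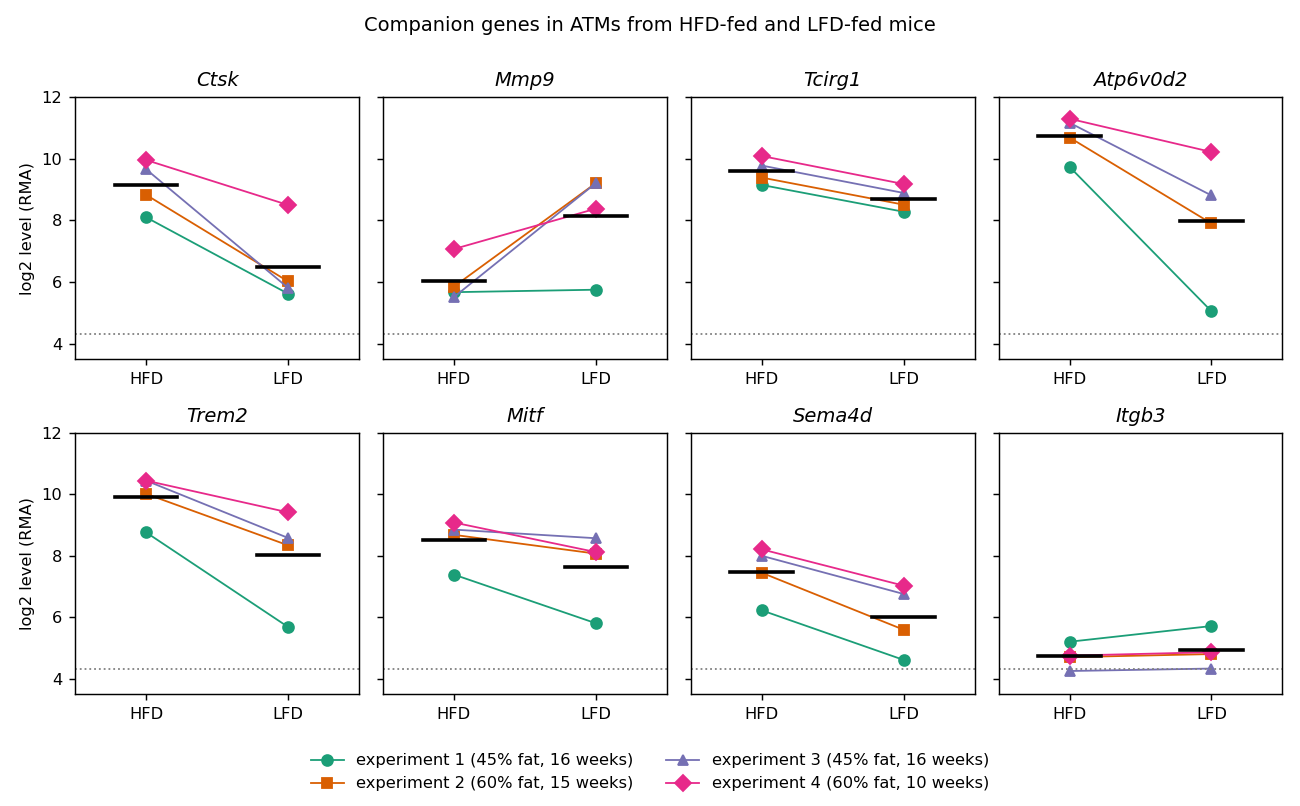
Log2 level (RMA, vertical axis) of 8 companion genes on HFD arrays (left in each panel) and LFD arrays (right), arrays of 1 experiment joined by a line, the mean of 4 pools as a black bar and the dim limit of 4.32 dotted. Ctsk, Tcirg1, Atp6v0d2, Trem2, Mitf and Sema4d slope down to LFD in all 4 experiments, Mmp9 and Itgb3 slope up, and the pools of experiment 1 are the lowest of their diet for all 6 genes that slope down.

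The signals that start the programme were mixed. Of 23 genes of the RANKL and NF-kB list 2 (8.7%) were higher and 1 (4.35%) lower in all 4 experiments, with a median of 0.02. Of all genes 11.0% were higher and 7.43% lower in all 4. RANKL itself, Tnfsf11, was at 4.34 to 4.69 in ATMs from obese mice and 4.20 to 5.11 in ATMs from lean mice, and Tnfrsf11b, its decoy receptor, was at 3.47 to 4.61 in ATMs from obese mice and 3.93 to 4.25 in ATMs from lean mice, both near the dim limit. Traf6, the main adaptor of RANK, differed by 0.20 (SE 0.17) with mixed signs. Traf5, another TRAF adaptor, differed by 0.56 (SE 0.15) with no overlap between diets, Gab2, a docking protein below RANK, by 0.37 (SE 0.16), and Map3k14, the NF-kB-inducing kinase, by -0.32 (SE 0.19).

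Of 19 genes of ITAM co-stimulation 2 were higher and 1 lower in all 4 experiments. Neither share exceeded that of all genes (11.0% higher and 7.43% lower). Trem2, a lipid-sensing receptor that pairs with Tyrobp, was at 8.76, 10.01, 10.44 and 10.44 in ATMs from obese mice and 5.69, 8.34, 8.58 and 9.41 in ATMs from lean mice. The mean difference was 1.91 (SE 0.79), with 3.07 in experiment 1 and 1.67, 1.86 and 1.03 in experiments 2, 3 and 4. Blnk, an adaptor below the ITAM, differed by 1.15 (SE 0.78) and Siglece, an inhibitory receptor, by -1.39 (SE 0.69). The adaptors themselves differed chiefly in experiment 1, where Tyrobp was at 8.67 in the obese pool and 6.54 in the lean pool and Fcer1g at 10.18 and 8.91. The median of the list was 1.17 in experiment 1 and 0.11, -0.28 and 0.22 in experiments 2, 3 and 4, beside macrophage marker means that differed by 1.20, -0.14, -0.44 and 0.10, and the part of macrophage content in this list was not tested. The median of the mean differences was -0.22 without the lean pool of experiment 1 and 0.74 without its obese pool.

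Of 23 transcription factors 5 (21.7%) were higher and 1 (4.35%) lower in all 4 experiments, against 11.0% and 7.43% of all genes. The median difference of this list was 0.06. Mitf, which acts on the Acp5 promoter in mouse osteoclasts and whose letters the Acp5 stretch holds, was at 7.39, 8.68, 8.85 and 9.08 in ATMs from obese mice and 5.81, 8.07, 8.57 and 8.12 in ATMs from lean mice, and the mean difference was 0.86 (SE 0.64). Spi1, which encodes PU.1, differed by 0.72 (SE 0.79), most of it in experiment 1, Prdm1, a repressor of anti-osteoclast genes, by 0.76 (SE 0.30), and Myc by 0.59 (SE 0.34). Fos, an AP-1 subunit, was at 10.80 to 10.97 in ATMs from obese mice and 10.66 to 10.92 in ATMs from lean mice. Of 20 repressors of differentiation 3 (15.0%) were higher and 2 (10.0%) lower in all 4 experiments. Egr2 differed by 0.86 (SE 0.32) and Tnfaip3, a brake on NF-kB, by 0.61 (SE 0.29), whereas Zfp36l1 differed by -0.40 (SE 0.23) and Notch1 by -0.30 (SE 0.42). Irf8 (0.06, SE 0.45) and Bcl6 (0.37, SE 0.30), which hold osteoclast genes down, had mixed signs.

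Of 28 Src family kinases and podosome proteins 8 (28.6%) were higher and 1 (3.57%) lower in all 4 experiments, against 11.0% and 7.43% of all genes. Their median difference of 0.22 was 0.08 without the lean pool of experiment 1. Ptk2b, the focal adhesion kinase Pyk2 that works with Src, differed by 0.63 (SE 0.27), Cblb, a ubiquitin ligase, by 0.48 (SE 0.21), Fermt3, the integrin activator kindlin-3, by 0.63 (SE 0.78) and Dok1, a docking protein, by 0.47 (SE 0.42). Fyn (0.56, SE 0.32) and Yes1 (0.10, SE 0.98), kinases of the Src family, had mixed signs, and Yes1 was highest in experiment 1, at 7.74 in the obese pool and 8.05 in the lean pool, as the endothelial markers were.

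Of 26 genes of M-CSF and other growth signals 5 (19.2%) were higher and 4 (15.4%) lower in all 4 experiments, with a median of -0.03. Of all genes 11.0% were higher and 7.43% lower in all 4. Csf1r, the M-CSF receptor, differed by 0.14 (SE 0.72) and its ligand Csf1 by 0.00 (SE 0.80). Sema4d, a semaphorin that osteoclasts release, was at 6.23, 7.45, 8.00 and 8.21 in ATMs from obese mice and 4.62, 5.60, 6.76 and 7.03 in ATMs from lean mice, and the mean difference was 1.47 (SE 0.63). Csf2ra, a GM-CSF receptor subunit, differed by 1.01 (SE 0.71), Tnfrsf1b, the TNF receptor 2, by 0.65 (SE 0.33), and Cx3cr1, the fractalkine receptor, by -1.80 (SE 0.47). Of the proteins that partner the calcitonin receptor family, Ramp3 was dim on all 8 arrays, at 2.97 to 3.48 in ATMs from obese mice and 3.05 to 3.49 in ATMs from lean mice, whereas Ramp1 differed by 0.28 (SE 0.15) and Ramp2, an endothelial gene, was at 9.09 and 9.61 in the obese and lean pools of experiment 1.

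The other 4 measured acid phosphatases did not share the pattern of Acp5. None of the 4 was higher in all 4 experiments, 1 was lower (Acp7, dim on all arrays and named after its values were seen), and the list's median difference was 0.00. Acpp was dim on all arrays too, so the comparison rests on Acp1 and Acp6. Acp2 had no probe set of its own. Of 10 genes of bone-forming cells 6 were dim on more than 4 arrays. In all 4 experiments 1 of the 10 was higher and 1 lower (10.0% each, against 11.0% and 7.43% of all genes). Col1a1, a collagen gene of fibroblasts as well as of bone, was the higher one, at 7.90 to 10.22 in ATMs from obese mice and 6.09 to 8.77 in ATMs from lean mice. The mean of 9 fibroblast markers, Col1a1 among them, differed by 0.01, 0.73, 1.27 and -0.48 in experiments 1, 2, 3 and 4, and its part in the Col1a1 difference was not tested.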

How the data were processed

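RNA of bead-selected cells was measured on 8 Affymetrix arrays. Values were deposited by the authors on the log2 scale after RMA, a method that the submitters' processing notes list (version not given in the sources used here). They were used as deposited. Array medians were 4.25 to 4.39. Of 35556 features, 21218 had 1 symbol, and the brightest probe set stood for each of 18820 genes. HFD was compared with LFD in limma 3.58.1 (R 4.3.3; lmFit, eBayes, Benjamini-Hochberg, threshold 0.05), without a block. The labels pair the arrays by experiment number. Departures of paired arrays from the diet means correlated unevenly (r across genes of 0.889, 0.357, 0.652 and 0.186 in experiments 1, 2, 3 and 4). The obese arrays of experiments 1 and 3 correlated best with the lean array of their own experiment. Those of experiments 2 and 4 correlated best with the lean array of experiment 3. The number of arrays limits the precision. A p-value sets the diet difference against the spread between pools of the same diet, which without a block also holds differences between experiments. Dim means under log2 of 20 (4.32), and a gene dim on more than 4 arrays was left out in 1 alternative. Of 228 companion genes, 5 lay only on probe sets with several symbols and 17 were not found by symbol.

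The 8 genes and the companion lists were chosen with earlier results of these data known. Named companions were well-known partners and up to 4 genes per list with the largest mean difference among those of 1 sign in all 4 experiments and not dim on more than 4 arrays. The 3 genes most like each of the 8 by Pearson's r, and Adgre1, were named too. Fits were tested on simulated data. Alternatives changed the block, the test, the priors, the probe set, the scaling, the dim filter and the arrays, experiments or fat contents used. Python 3.11.15 with pandas 2.3.3 and matplotlib 3.10.9 made the counts and figures.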

Additional observations from a re-analysis of the deposited data

Results flagged for a closer look

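Among the 56 genes of the report that were checked, 112 groups of 4 arrays were compared with Dixon's critical value for 4 samples, and in 17 of them 1 array lay far from the other 3. Chance alone gives about 1 group in 20. Of these 17 arrays 14 belonged to experiment 1. Among the 8 osteoclast genes there were 3 such arrays. For Tnfrsf11a it was the lean pool of experiment 1, which was low (7.35). Oscar was low in the obese pool of experiment 4 (2.57) and Calcr in the obese pool of experiment 1 (2.82), both at dim levels.

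In obese pools, the array of experiment 1 was low for Fcer1g (10.18), Csf1r (9.67), Irf8 (6.73), Fermt3 (7.16) and Tnfrsf1b (8.67), genes of macrophages and other blood cells, and high for Ramp2 (9.09), Yes1 (7.74) and Notch1 (9.32). In lean pools, the array of experiment 1 was low for Tyrobp (6.54), Spi1 (6.90) and Blnk (5.60) and high for Notch1 (9.34). The lean pool of experiment 4 was high for Ctsk (8.50), and the lean pool of experiment 3 was low for Col1a1 (6.09).

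Traf6 differed by -0.05 on average in the experiments with 45% of energy from fat, lower in both, and by 0.44 in those with 60%, higher in both. This difference between fat contents was not tested.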

How the results depend on the processing

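The count of genes past the adjusted threshold was 0 in each direction, and 0 among companion genes, under every alternative run: with experiment as a replicate block, fixed or random, with the methods' t-test, with trended robust priors, with the mean of probe sets, with either rescaling, without dim genes, without experiment 1 or 4, with 1 fat content only and without any 1 array. At p under 0.05 before adjustment, the paired fit had 1497 genes higher and 783 lower, and 61 of the 206 companion genes were among them, but the block changed no call. Centring each array on its median gave 312 higher and 402 lower genes by the same criterion, against 621 and 284 as deposited, and quantile normalising again gave 462 and 455.

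The median difference of the 8 osteoclast genes, 0.33, was 0.57 over the 6 that were not dim on more than 4 arrays. It was 0.15 with the mean of 13 macrophage markers subtracted and -0.38 with the mean of Cd68, Adgre1 and Itgam subtracted. Both subtractions were chosen after seeing the data and moved experiment 1 most, and the cause was not tested. Without 1 array at a time the median of the 8 ran from 0.25 (without the obese pool of experiment 4) to 0.38. Under the alternatives without subtraction, those that leave out 1 array included, the difference of Dcstamp ran from 1.55 to 2.35, of Acp5 from 0.98 to 2.38, of Ocstamp from 0.53 to 0.92, of Src from 0.32 to 0.47, of Tnfrsf11a from 0.13 to 0.34, of Nfatc1 from -0.21 to -0.09 and of Calcr from 0.04 to 0.16, all of 1 sign, and that of Oscar from -0.08 to 0.19. Of 126 such values for single genes 1 moved by more than the spread between replicates. Those with the mean of probe sets or without dim genes could not move. Each of the 8 had 1 probe set, and the filter leaves a difference unchanged. For Acp5 the spread was wide (SD 1.34), so few values could pass it. Of 160 medians of companion lists 26 moved, and that of ITAM co-stimulation ran from -0.22 to 0.74. Levels near the dim limit, as for Ocstamp, limit what the arrays can show.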
